A study of Homo sapiens with 11 samples.

Results

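The expression of 57 gene symbols, most of them for core proteins of the spliceosome, was measured among 31325 gene symbols. They include LSM1, LSM10 and LSM11, whose roles in other particles are given below. All 57 were chosen by symbol, with earlier results of these data known. The rule took every deposited symbol that starts with SNRP, SNRNP or U2AF, or with PRPF and a number. It also took every symbol that is LSM, SF3A or SF3B followed by a number. By class, 19 encode small Sm and LSm proteins, 12 encode large subunits such as PRPF8 and SF3B1, and 26 encode the other proteins. All 57 symbols matched a gene in the RefSeq gene table of GRCh38.p14, some through an older name. SNRP70 is an older symbol of SNRNP70, so that 2 symbols stand for 1 gene, while SF3B14 is now named SF3B6, U2AF1L2 is now ZRSR2 and PRPF4B is now PRP4K. The levels came from 11 Illumina HumanHT-12 v4 BeadChips, arrays that carry gene probes on beads.
MDA-MB-231, a human breast cancer cell line, and SKOV3, a human ovarian cancer cell line, were transfected with miR-365a-3p or with a control miRNA. There were 3 arrays of MDA-MB-231 cells with control miRNA, 3 of MDA-MB-231 cells with miR-365a-3p, 2 of SKOV3 cells with control miRNA and 3 of SKOV3 cells with miR-365a-3p. The sample labels place them at 48 h, the description of the series at 24 h, and the paper names the ovarian line as SKOV3.ip1. All 4 groups were transfected, and no untransfected cells were compared. The dose on these arrays is not given in the sources used here.
The spliceosome removes introns from pre-mRNA. It is built from small nuclear ribonucleoproteins (snRNPs), each a small nuclear RNA with a ring of Sm or LSm proteins and a set of larger proteins of its own. U1 recognises the start of the intron, U2 the branch site, and the U4/U6.U5 tri-snRNP brings the proteins that form and remodel the catalytic centre. A miRNA loaded on argonaute pairs with mRNAs mainly through its seed, and paired mRNAs are repressed or degraded.
The mature miRNA is shown because its sequence is what was added to the cells. In RefSeq (GRCh38.p14) it lies at chr16:14309340-14309361 on the plus strand, and the 22 bases are the same in the copy at chr17:31575478-31575499, plus strand, named miR-365b-3p. The capitals mark the seed, bases 2 to 8.
hsa-miR-365a-3p: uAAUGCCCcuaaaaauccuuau

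Values are log2 signals after quantile normalization of the deposited values across the 11 arrays. Most genes lie close to the lowest signal, and 7.45, the 60th percentile of the gene means, was taken as a floor above which 12530 genes lay. By their mean over all arrays, 53 of the 57 members were above it. LSM11, PRPF40B and SNRP70 were at or below it in all 4 groups, and SF3A1 and SNRNP200 were above it with control miRNA and at or below it with miR-365a-3p in both cell lines. Of the marker genes, ERBB2 was at 10.9 in SKOV3 controls and 7.61 in MDA-MB-231 controls, and VIM was between 13.1 and 13.8 in all groups. ESR1, expected to be low in both lines, was at 7.28 in MDA-MB-231 controls and above the floor at 8.83 in SKOV3 controls. EPCAM, expected to be low in MDA-MB-231, was above the floor there at 7.63 with control and 8.44 with miR-365a-3p. In SKOV3 controls it was at 10.4. The leukocyte genes PTPRC, CD3E and CD79A were at or near the floor in every group. The endothelial gene PECAM1 had group means between 7.39 and 7.47, also near the floor. The arrays numbered 1 of both miR-365a-3p groups departed from their group means together (r = 0.668 across the genes above the floor, which are not independent replicates). Those numbered 2 and 3 did so less, with r = 0.296 and 0.338, while MDA-MB-231 array 3 with SKOV3 array 2 gave 0.600. Several results that rest on the arrays numbered 1 are given with and without them.

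After miR-365a-3p the members split into both directions in both cell lines. With limma and Benjamini-Hochberg adjustment over all genes, 23 members rose and 12 fell in MDA-MB-231 at an adjusted p under 0.05. This was 40.4% and 21.1% of the members, against 14.4% and 11.7% of all genes and 33.2% and 25.1% of the genes above the floor. In SKOV3 cells 11 members rose and 9 fell, or 19.3% and 15.8%, against 7.25% and 7.11% of all genes and 17.4% and 15.4% of those above the floor. The shares thus exceeded those of all genes but were close to those of genes with a signal above the floor. In both cell lines 11 rose (19.3%, against 5.76% of all genes and 14.3% above the floor) and 8 fell (14.0%, against 5.39% and 12.6%). The log2 fold change had the same sign in both lines for 52 members. It did so for 21200 of all 31325 genes and for 10528 of the 12530 above the floor. Called in opposite directions were 0 members, 23 of all genes and 22 of those above the floor. For 20 members the miR-365a-3p arrays all exceeded the controls of their line in both lines (13.3% of all genes, 30.5% of those above the floor), and for 10 they were all below (10.3% and 21.4%).
The median log2 fold change of the 57 was 0.17 in MDA-MB-231 and 0.05 in SKOV3 cells, against 0.01 over all genes in each. Over the genes above the floor it was 0.05 and 0.06, so the SKOV3 median of the members was not above theirs. On the deposited values without further normalization the balance moved, with 14 members higher and 18 lower in MDA-MB-231 and 9 higher and 13 lower in SKOV3 cells. Centring each array on its median gave 16 higher and 18 lower in MDA-MB-231, and cyclic loess gave 7 higher and 10 lower in SKOV3 cells. The shares of all genes called under these settings are not given here. Whether the members moved with all genes therefore cannot be read from these counts. Nothing in the labels says that replicates came from separate cultures, so that p-values measure the spread between arrays, which may be technical. An array reads the RNA of a whole culture, and less mRNA in every cell cannot be told apart from fewer cells that hold it.
On the deposited values the rises of LSM12, PRPF39, PRPF4B, SF3B5, SNRNP25, SNRNP48, SNRPE, U2AF1L2 and U2AF1L4 in MDA-MB-231 were not called. Those of LSM6, PRPF18, SNRNP40 and SNRNP48 in SKOV3 cells were not called either.
The plot of the response by role gives the 36 members called in at least 1 line. It places the Sm and LSm genes mostly right of 0, and the U2 and tri-snRNP genes on both sides with the longest falls.

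**Figure D1:**
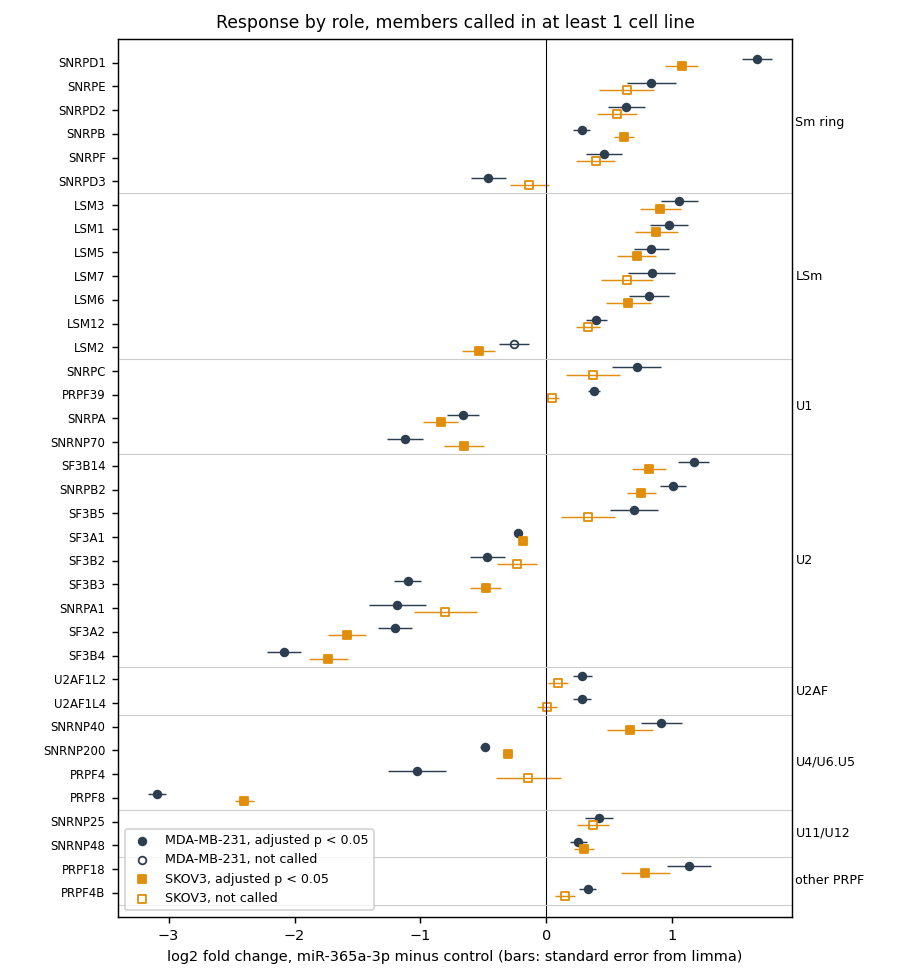
Log2 fold change of the 36 members called in MDA-MB-231, SKOV3 or both (miR-365a-3p minus control), with MDA-MB-231 as circles and SKOV3 as squares, filled where the adjusted p was under 0.05, bars showing the standard error from limma. PRPF8 lies farthest left at -3.09 and -2.40, and SNRPD1 farthest right at 1.67 and 1.08.

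The Sm proteins form the ring that holds the U1, U2, U4 and U5 small nuclear RNAs. Of the 8 measured genes, 5 rose and 1 fell in MDA-MB-231, and 2 rose and 0 fell in SKOV3 cells, with medians of 0.41 and 0.59 on the log2 fold change scale. Of the genes above the floor, 33.2% rose and 25.1% fell in MDA-MB-231, and 17.4% and 15.4% did so in SKOV3 cells. SNRPD1, which encodes SmD1, had the largest rise of all members. Its log2 signal was 8.19, 8.15 and 8.33 on the MDA-MB-231 control arrays and 10.1, 9.96 and 9.65 with miR-365a-3p. The SKOV3 arrays gave 8.07 and 7.97 with control and 9.28, 8.94 and 9.08 with miR-365a-3p. All 6 miR-365a-3p arrays lay clear of the controls of their line. The log2 fold change was 1.67 (standard error 0.12, limma adjusted p = 3.13e-05) in MDA-MB-231, a 3.19-fold rise. It was 1.08 (standard error 0.13, limma adjusted p = 0.00103) in SKOV3 cells, a 2.11-fold rise. An exact permutation of the treatment labels within each line gave p = 0.005, two-sided, the smallest that its 200 arrangements allow.
SNRPB, which encodes SmB, rose from 11.95, 11.98 and 12.04 to 12.23, 12.38 and 12.20 in MDA-MB-231. The SKOV3 values rose from 11.41 and 11.17 to 11.95, 11.84 and 11.93. The groups did not overlap in either line, with log2 fold changes of 0.28 (limma adjusted p = 0.0159) and 0.62 (adjusted p = 0.00119). Without miR-365a-3p replicate 2 or without control replicate 1 of MDA-MB-231 cells the first of these was not called, with limma adjusted p-values of 0.0564 and 0.0552. SNRPE (0.83), SNRPD2 (0.64) and SNRPF (0.46) rose in MDA-MB-231, with limma adjusted p-values of 0.0125, 0.011 and 0.042. SNRPD2 was at 11.74, 11.31 and 11.04 with control and 12.03, 11.90 and 12.07 with miR-365a-3p, and SNRPF at 11.23, 10.75 and 10.72 against 11.40, 11.26 and 11.41, without overlap. On the SKOV3 arrays SNRPD2 was at 11.51 and 11.43 against 12.05, 11.99 and 12.06, and SNRPF at 11.29 and 11.27 against 11.57, 11.54 and 11.90, again without overlap. Their log2 fold changes and that of SNRPE in SKOV3 cells were 0.56, 0.39 and 0.64, and none was called (limma adjusted p = 0.0521, 0.16 and 0.0957). SNRPE shows the array numbered 1 plainly, since its signal with miR-365a-3p was 9.11, 8.50 and 8.41 in MDA-MB-231 and 8.78, 8.16 and 8.41 in SKOV3 cells. Its controls were between 7.74 and 7.89 in both lines. Without those arrays SNRPE was called in SKOV3 cells (0.49, limma adjusted p = 0.0121), and the rise of SNRPF in MDA-MB-231 was not (0.43, limma adjusted p = 0.123). The SNRPF call held with only 3 of the 11 arrays left out singly.
SNRPG had log2 fold changes of 0.35 and 0.76 that were not called (limma adjusted p = 0.29 and 0.063). One of its MDA-MB-231 control arrays, at 12.41, was above 2 of the 3 miR-365a-3p arrays, at 12.24 and 12.29. In SKOV3 cells the miR-365a-3p arrays, at 12.38, 12.07 and 12.17, were all above the controls, at 11.54 and 11.37, and the rise was called with 8 of 20 alternatives. SNRPD3, which encodes SmD3, was the Sm gene that fell. In MDA-MB-231 its signal was 7.88, 8.33 and 8.11 with control and 7.42, 7.75 and 7.78 with miR-365a-3p, a log2 fold change of -0.46 (limma adjusted p = 0.0394). The call held with 4 of the 11 arrays left out singly (limma adjusted p up to 0.132), and without both arrays numbered 1 it was lost (-0.36, adjusted p = 0.0707). In SKOV3 cells it was between 7.35 and 7.71 on every array, with a log2 fold change of -0.14 that was not called (limma adjusted p = 0.74). SNRPN had log2 fold changes of 0.01 and -0.33 and was called in neither line (limma adjusted p = 0.982 and 0.161). Without both arrays numbered 1 it was called as lower in SKOV3 cells (-0.48, limma adjusted p = 0.0028), as it was on the deposited values (-0.57, adjusted p = 0.0114).

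Several LSm proteins form similar rings. LSM2 to LSM8 bind the end of U6 in the nucleus, and with LSM1 in place of LSM8 the ring acts in cytoplasmic mRNA decay. The LSm genes counted here also include LSM10, LSM11 and LSM12, which are not in the rings just named. Of 11 LSm genes measured, 6 rose and 0 fell in MDA-MB-231, and 4 rose and 1 fell in SKOV3 cells, with medians of 0.54 and 0.51 on the log2 fold change scale. The 4 that rose in both were LSM1, LSM3, LSM5 and LSM6. Among all genes above the floor, 33.2% rose and 25.1% fell in MDA-MB-231, against 17.4% and 15.4% in SKOV3 cells. LSM3 went from 10.31, 10.23 and 9.90 to 11.47, 11.11 and 11.03 in MDA-MB-231, a log2 fold change of 1.06 (standard error 0.15, limma adjusted p = 0.000894). The SKOV3 values went from 10.06 and 9.87 to 11.04, 10.74 and 10.83, a log2 fold change of 0.90 (standard error 0.16, limma adjusted p = 0.00675). The miR-365a-3p arrays of both lines were all higher than the control arrays.
LSM1, the member of the decay ring, was at 10.67, 10.23 and 10.37 with control and 11.62, 11.34 and 11.23 with miR-365a-3p in MDA-MB-231, and at 11.68 and 11.22 against 12.40, 12.34 and 12.22 in SKOV3 cells. It changed by 0.98 (limma adjusted p = 0.00169) and 0.87 (adjusted p = 0.00992), and its arrays did not overlap in either line (exact permutation p = 0.005). LSM8, which takes its place in the U6 ring, had log2 fold changes of 0.24 and 0.21 that were not called (limma adjusted p = 0.229 and 0.456). They were -0.11 and -0.04 on the deposited values, so its direction depends on the normalization. Without MDA-MB-231 miR-365a-3p replicate 3 it was called as higher in that line (0.36, limma adjusted p = 0.0432), and also with a replicate block shared by the lines (0.24, adjusted p = 0.0376). Its MDA-MB-231 arrays overlapped, with controls from 7.84 to 7.98 and miR-365a-3p arrays from 7.90 to 8.37. Whether LSM1 and LSM8 differ in their response was not tested. LSM5 (0.84 and 0.72) and LSM6 (0.82 and 0.65) were near LSM1, while LSM7 (0.84 and 0.64) and LSM12 (0.40 and 0.33) were called in MDA-MB-231 alone, with limma adjusted p-values of 0.0762 and 0.052 in SKOV3 cells. Without SKOV3 control replicate 2, neither LSM1 (0.65, limma adjusted p = 0.106) nor LSM3 (0.81, adjusted p = 0.0761) was called in SKOV3 cells. LSM5 and LSM6 lost their SKOV3 calls without either control array, with limma adjusted p-values of 0.0723 and 0.129 for LSM5 and of 0.233 and 0.158 for LSM6. Of the 11 arrays left out singly, the LSM5 call held with 9 and the LSM6 call with 4.
LSM2 was the LSm gene that fell. In SKOV3 cells its signal was 10.89 and 10.83 with control and 10.28, 10.36 and 10.33 with miR-365a-3p, without overlap, a log2 fold change of -0.54 (limma adjusted p = 0.027). The MDA-MB-231 arrays were 10.40, 10.71 and 10.13 against 10.20, 10.13 and 10.12, a log2 fold change of -0.26 that was not called (limma adjusted p = 0.165). Without both arrays numbered 1 LSM2 was not called in SKOV3 cells (-0.51, limma adjusted p = 0.082), and without SKOV3 control replicate 1 or 2 its adjusted p was 0.161 and 0.134. LSM10 and LSM11 belong to the U7 particle that processes histone pre-mRNAs. LSM4 (0.54 and 0.36) and LSM10 (0.52 and 0.51) were called in neither line, and LSM11 stayed at the floor.

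Among the proteins of the U1 snRNP those that bind U1 RNA directly, SNRNP70 and SNRPA, fell. SNRNP70 went from 10.34, 10.49 and 10.62 to 9.18, 9.41 and 9.49 in MDA-MB-231 and from 9.92 and 9.82 to 8.91, 9.48 and 9.26 in SKOV3 cells. Every miR-365a-3p array was below the controls, with log2 fold changes of -1.12 (limma adjusted p = 0.000623) and -0.65 (adjusted p = 0.0276). Without SKOV3 control replicate 1 or 2 the second was not called (-0.61 and -0.71, limma adjusted p = 0.174 and 0.124). The value listed under the older symbol SNRP70 was between 7.24 and 7.33 on all arrays, at the floor, so the 2 values of this gene differ. SNRPA fell by 0.66 and 0.84 on the log2 scale (limma adjusted p = 0.00459 and 0.00489), the second not called without SKOV3 control replicate 2 (limma adjusted p = 0.0601). The third U1 protein, SNRPC, rose in MDA-MB-231 (0.72, limma adjusted p = 0.0234) and was not called in SKOV3 cells (0.37, adjusted p = 0.376). PRPF39, a large protein of the U1 pathway, rose in MDA-MB-231, from 7.74, 7.58 and 7.59 to 8.05, 8.03 and 7.96 (0.38, limma adjusted p = 0.000473). PRPF40B stayed at the floor.

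The U2 snRNP proteins changed in both directions. Of 11 genes, 3 rose and 6 fell in MDA-MB-231, and 2 rose and 4 fell in SKOV3 cells, where 25.1% and 15.4% of the genes above the floor fell. SF3B4, an SF3b protein that contacts the pre-mRNA near the branch site, fell the most of these. Its signal was 9.61, 9.93 and 9.98 with control and 7.77, 7.81 and 7.68 with miR-365a-3p in MDA-MB-231, a log2 fold change of -2.08 (standard error 0.14, limma adjusted p = 2.26e-05), or 4.24-fold. In SKOV3 cells the signal was 9.73 and 9.75 with control and 7.73, 8.28 and 8.01 with miR-365a-3p, a log2 fold change of -1.73 (standard error 0.15, limma adjusted p = 0.000193), or 3.32-fold. The miR-365a-3p arrays lay far below the controls in both lines.
SF3A2, an SF3a protein, went from 8.54, 8.79 and 9.15 to 7.62, 7.64 and 7.61 in MDA-MB-231 and from 9.32 and 9.15 to 7.59, 7.81 and 7.56 in SKOV3 cells. All miR-365a-3p arrays were below all controls, and the log2 fold changes were -1.20 (limma adjusted p = 0.000322) and -1.58 (adjusted p = 0.000305). SF3B3, a large scaffold subunit of SF3b, went from 9.10, 8.90 and 9.05 to values between 7.67 and 8.08 in MDA-MB-231 and from 8.51 and 8.51 to 7.97, 8.18 and 7.93 in SKOV3 cells. The log2 fold changes were -1.10 (limma adjusted p = 0.000166) and -0.48 (adjusted p = 0.0307), and without SKOV3 control replicate 1 or 2 the second was not called (adjusted p = 0.148 and 0.168). SF3A1 fell by 0.22 and 0.19 on the log2 scale to the floor, which limits how far its fall could be seen.
SF3B1, the large subunit that clamps the branch site, was not called in either line, with log2 fold changes of -0.43 and -0.09 (limma adjusted p = 0.208 and 0.92). Its signal was 8.97, 8.67 and 8.63 with control and 8.12, 8.30 and 8.55 with miR-365a-3p in MDA-MB-231. In SKOV3 cells it was 8.59 and 8.74 with control and 8.05, 8.90 and 8.79 with miR-365a-3p. The miR-365a-3p array numbered 1 was the lowest array in each line, and the other 2 SKOV3 arrays were above both controls. Without both of these arrays the log2 fold changes were -0.33 and 0.17 and were not called. Without the SKOV3 one alone, SF3B1 was called as lower in MDA-MB-231 (-0.43, adjusted p = 0.0354). SF3B2 fell in MDA-MB-231, from 9.53, 9.43 and 9.56 to 8.84, 9.04 and 9.23 (-0.47, limma adjusted p = 0.0361). The call was lost without both arrays numbered 1 (-0.36, adjusted p = 0.129), and it held with 6 of the 11 arrays left out singly, not without any 1 of the 3 MDA-MB-231 controls or miR-365a-3p replicates 1 and 2. In SKOV3 cells SF3B2 was at 9.17 and 9.54 with control and 9.02, 8.98 and 9.37 with miR-365a-3p, overlapping (-0.23, adjusted p = 0.465). SF3A3 was also low on the miR-365a-3p arrays numbered 1, at 8.47 and 8.77. It was called in neither line, nor with any array left out singly.
By contrast, SF3B14 rose. It encodes the small SF3b protein that lies at the branch site, and its signal went from 9.99, 10.02 and 9.64 to 11.30, 10.94 and 10.91 in MDA-MB-231 and from 10.30 and 10.21 to 11.04, 11.07 and 11.09 in SKOV3 cells. The miR-365a-3p arrays were above the controls throughout, with log2 fold changes of 1.17 (limma adjusted p = 0.000221) and 0.82 (adjusted p = 0.00479). Without SKOV3 control replicate 2 the second was 0.78 and not called (limma adjusted p = 0.0541). SNRPB2 (1.01 and 0.76) also rose in both lines, and SF3B5 (0.70) in MDA-MB-231. SNRPB2 and SNRPA1 encode partners that bind each other on U2 RNA, and they lay on opposite sides of 0. SNRPA1 fell in MDA-MB-231 (-1.18, limma adjusted p = 0.00436), and in SKOV3 cells its log2 fold change was -0.80 (adjusted p = 0.0691), with every miR-365a-3p array below every control array in both lines.
The U2AF proteins read the end of the intron for U2. U2AF1 (-0.13 and -0.21) and U2AF2 (-0.08 and -0.11) were called in neither line, but U2AF2 was called as lower in MDA-MB-231 on the deposited values (-0.33, limma adjusted p = 0.0308). U2AF1L2 (0.29) and U2AF1L4 (0.28) rose in MDA-MB-231, with limma adjusted p-values of 0.0175 and 0.0164. The table also lists the current symbol ZRSR2 of U2AF1L2 on a row of its own, whose log2 fold change was 0.11 and was not called. The sign of U2AF1L2 in MDA-MB-231 turned on the deposited values without further normalization (-0.07, limma adjusted p = 0.714), and with median centring (-0.04, limma adjusted p = 0.803).

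The largest change of all members was in the U4/U6.U5 tri-snRNP. PRPF8 encodes the scaffold around the catalytic centre. Its signal was 11.09, 11.16 and 11.29 with control and 8.12, 8.08 and 8.07 with miR-365a-3p in MDA-MB-231. In SKOV3 cells it was 10.31 and 10.04 with control and 7.79, 7.79 and 7.76 with miR-365a-3p. The 6 miR-365a-3p arrays lay close to each other and far below the controls of their line. The log2 fold changes were -3.09 (standard error 0.069, limma adjusted p = 2.85e-07) and -2.40 (standard error 0.078, adjusted p = 1.76e-06), an 8.53-fold and a 5.27-fold fall. With each array left out in turn they stayed between -3.16 and -3.06 and between -2.55 and -2.27.
SNRNP200 encodes the helicase that unwinds U4 from U6 and binds PRPF8. It fell from between 7.84 and 7.89 to between 7.36 and 7.40 in MDA-MB-231 (-0.49, limma adjusted p = 2.75e-05) and from 7.74 on both controls to between 7.37 and 7.51 in SKOV3 cells (-0.31, adjusted p = 0.000994). The miR-365a-3p means were at the floor, so these falls are limited by it. PRPF6, the large bridging protein between U5 and U4/U6, was at 7.62, 7.72 and 7.68 with control and 7.54, 7.78 and 7.69 with miR-365a-3p in MDA-MB-231, and at 7.74 and 7.67 against 7.60, 7.62 and 7.69 in SKOV3 cells. The groups overlapped in both lines, with log2 fold changes of -0.01 and -0.07 (limma adjusted p = 0.969 and 0.668). PRPF6 was called as lower in SKOV3 cells on the deposited values (-0.29, adjusted p = 0.0342). PRPF4, a U4/U6 protein, fell in MDA-MB-231, from 10.19, 9.90 and 10.03 to 8.45, 9.22 and 9.37 (-1.03, limma adjusted p = 0.0105). With each array left out in turn this log2 fold change was between -1.20 and -0.73 and was called. In SKOV3 cells PRPF4 was at 9.12 and 9.14 with control and 8.66, 9.13 and 9.17 with miR-365a-3p, and was not called (-0.14, adjusted p = 0.866). Both miR-365a-3p arrays numbered 1 were the lowest. SNRNP40, a U5 protein, was the tri-snRNP gene that rose, by 0.92 and 0.67 (limma adjusted p = 0.0031 and 0.0407), the second called with only 4 of the 11 arrays left out singly (limma adjusted p up to 0.214). PRPF3 (0.17 and 0.22), PRPF31 (-0.39 and -0.34) and SNRNP27 (0.29 and 0.18) were called in neither line. PRPF31 was called as lower in MDA-MB-231 with 6 of 20 alternatives, among them the deposited values (-0.61, limma adjusted p = 0.0169), and PRPF3 as higher there without both arrays numbered 1 (0.17, adjusted p = 0.0399).
The U11 and U12 proteins belong to the minor spliceosome, which removes a rare class of introns. SNRNP48 rose in both lines (0.25 and 0.30) and SNRNP25 in MDA-MB-231 (0.42), while SNRNP35 had log2 fold changes of 0.03 and -0.08. SNRNP35 was called as lower in both on the deposited values (-0.34 and -0.35, limma adjusted p = 0.0042 and 0.00912). The calls of SNRNP48 each held with 7 of the 11 arrays left out singly (limma adjusted p up to 0.0876 and 0.193). Of the remaining PRPF genes, PRPF18, a factor of the second splicing step, went from 8.60, 8.74 and 8.82 to 10.03, 9.93 and 9.60 in MDA-MB-231 and from 8.67 and 8.47 to 9.76, 9.17 and 9.14 in SKOV3 cells. Its arrays did not overlap, and the log2 fold changes were 1.13 (limma adjusted p = 0.00162) and 0.79 (adjusted p = 0.0292). Without SKOV3 control replicate 1 or 2 the second was not called (limma adjusted p = 0.0952 and 0.215). PRPF4B, a large kinase, rose in MDA-MB-231 from between 7.60 and 7.69 to between 7.88 and 8.13 (0.33, limma adjusted p = 0.00717). On the deposited values its log2 fold change was 0.03 (adjusted p = 0.673). PRPF38A (0.12 and -0.11) and PRPF38B (0.05 and 0.10) were called in neither line. On the deposited values PRPF38A was called as lower in SKOV3 cells (-0.41, adjusted p = 0.0283) and PRPF38B in MDA-MB-231 (-0.32, adjusted p = 0.00319).
The plot of the largest changes shows the arrays behind the 5 largest falls and the 5 largest rises among members called in both lines.

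**Figure D2:**
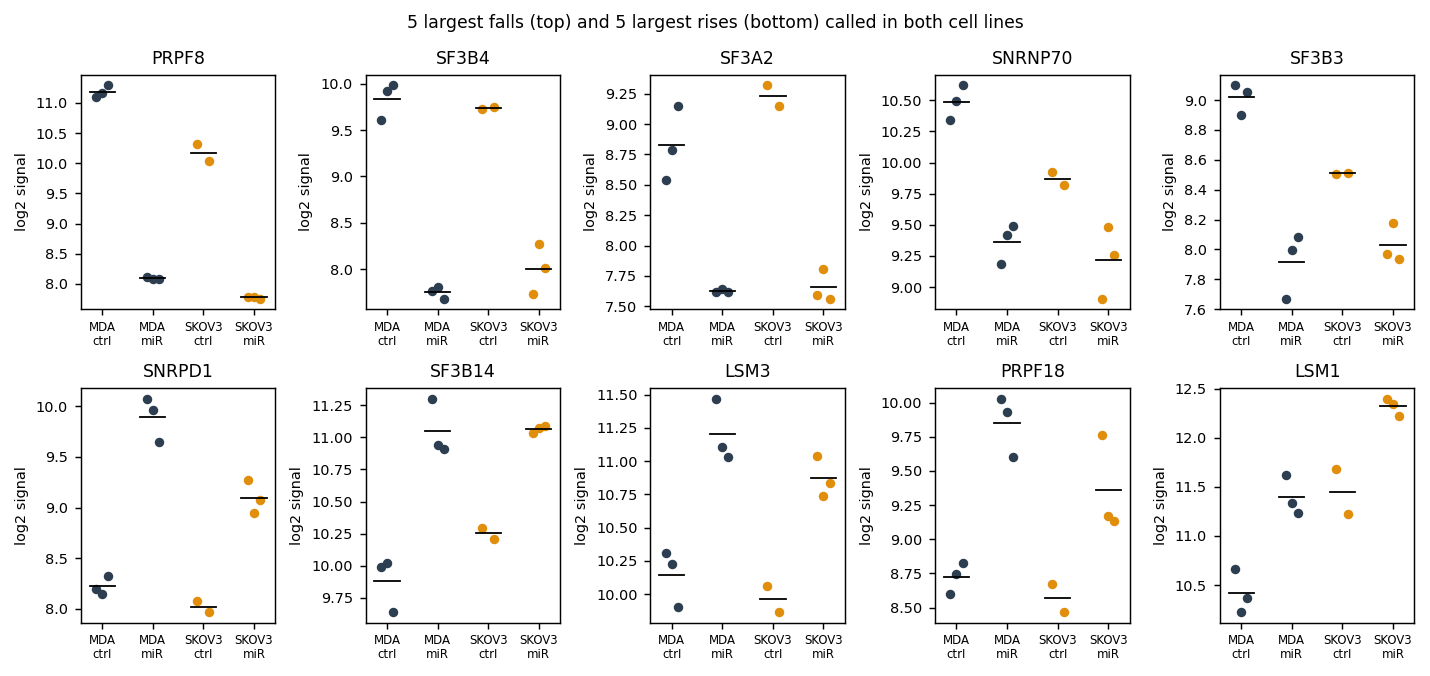
Log2 signal of 10 members on each of the 11 arrays, with the group mean as a line, for MDA-MB-231 (MDA) and SKOV3 cells with control miRNA (ctrl) or miR-365a-3p (miR). The vertical axes differ between panels and do not start at 0, and in each of the 10 panels the miR-365a-3p arrays lie clear of the control arrays of their line.

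The small Sm and LSm genes were set beside the large subunits, a comparison of classes chosen with earlier results of these data known. Of the 19 small genes, 11 rose and 1 fell in MDA-MB-231, and 6 rose and 1 fell in SKOV3 cells. Of the 12 large subunits, 2 rose and 5 fell in MDA-MB-231, and 0 rose and 4 fell in SKOV3 cells. Of all genes above the floor, 33.2% rose and 25.1% fell in MDA-MB-231, and 17.4% and 15.4% in SKOV3 cells. The large subunits that fell in both lines were PRPF8, SNRNP200, SF3A1 and SF3B3, and SF3B2 fell in MDA-MB-231. The median log2 fold change of the small genes was 0.52 in MDA-MB-231 and 0.56 in SKOV3 cells, and that of the large subunits -0.22 and -0.08. Over all genes it was 0.01 in each, and over the genes above the floor 0.05 and 0.06. On the deposited values the medians of the large subunits were -0.42 and -0.29 and those of the small genes 0.51 and 0.45. The classes also differ in the span of the gene on the genome, with medians of 13.4 kb (small) and 33.2 kb (large). The rank correlation (Spearman rho) of span with log2 fold change was -0.24 in MDA-MB-231 and -0.23 in SKOV3 cells over 56 members. Over 10427 genes above the floor it was -0.26 and -0.18. Whether the class difference goes beyond that of span was not tested.
The class did not settle the direction of each gene. SNRPD3 and LSM2 are small and fell in 1 line each, PRPF39 and PRPF4B are large and rose in MDA-MB-231, and PRPF6 and PRPF3 are among the large subunits that were not called. Among the 26 other members, 10 rose and 6 fell in MDA-MB-231 and 5 rose and 4 fell in SKOV3 cells.
The difference between the median signal of the small genes and that of the large subunits was taken on each array. Since probes differ in brightness, its change between arrays can be read but its size cannot. It was 1.47, 1.09 and 1.02 on the MDA-MB-231 control arrays and 2.13, 2.05 and 1.96 with miR-365a-3p. In SKOV3 cells it was 1.58 and 1.80 with control and 2.49, 2.14 and 2.60 with miR-365a-3p. The miR-365a-3p arrays were higher than the controls in each line, and the SKOV3 controls were above the MDA-MB-231 controls. The other members had a median signal of 8.46 on MDA-MB-231 miR-365a-3p replicate 1, below the 9.23 and 9.22 of replicates 2 and 3. In SKOV3 cells with miR-365a-3p it was 8.73, 9.06 and 9.15, so that replicate 1 was again the lowest.
The plot of the class medians shows these values by array. The large median in MDA-MB-231 moved from 8.14 ± 0.11 (SD, n = 3) to 8.03 ± 0.03 (SD, n = 3) and the small median from 9.34 ± 0.16 (SD, n = 3) to 10.08 ± 0.12 (SD, n = 3). For the SKOV3 line the large median moved from 8.07 ± 0.01 (SD, n = 2) to 7.75 ± 0.03 (SD, n = 3) and the small median from 9.76 ± 0.15 (SD, n = 2) to 10.16 ± 0.25 (SD, n = 3).

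**Figure D3:**
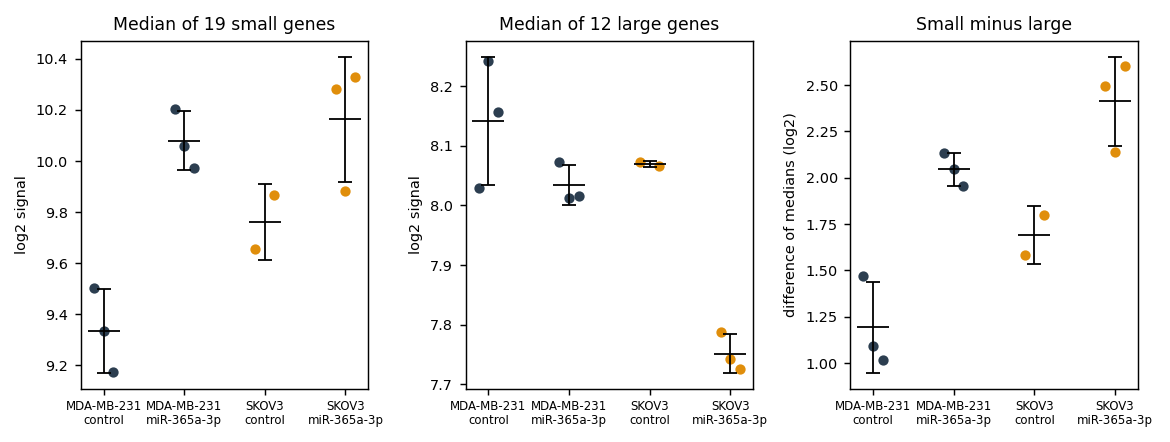
Median log2 signal of the 19 small genes and of the 12 large subunits and the difference of the medians (log2), with a point for each of the 11 arrays and the group mean ± SD. The vertical axes do not start at 0, and the difference is between 1.02 and 1.47 on MDA-MB-231 control arrays and between 1.96 and 2.13 with miR-365a-3p.

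The response was then compared between the cell lines by the interaction in limma. It was called for 2 members, 1 in each direction, against 1.3% of all genes called higher and 1.24% called lower in SKOV3 cells, or 3.02% and 2.59% of the genes above the floor. PRPF8 fell less in SKOV3 cells than in MDA-MB-231, with a difference of 0.70 on the log2 scale (standard error 0.10, limma adjusted p = 0.0106). Its controls were lower in SKOV3 cells to start with, while its levels with miR-365a-3p were 8.07 to 8.12 in MDA-MB-231 and 7.76 to 7.79 in SKOV3 cells. With each array left out the difference stayed between 0.57 and 0.85 and was called each time. With a replicate block within each cell line it was not called (0.71, limma adjusted p = 0.126), nor with robust hyperparameters and an intensity trend (adjusted p = 0.0614). PRPF39 rose in MDA-MB-231, was at 7.62 and 7.64 with control and 7.70, 7.70 and 7.63 with miR-365a-3p in SKOV3 cells, and had a difference of -0.33 (standard error 0.069, limma adjusted p = 0.0467). That call was lost without both arrays numbered 1 (-0.34, limma adjusted p = 0.0941), and of the 11 arrays left out singly it held with 1, MDA-MB-231 control replicate 1.
The other members called in 1 line only are not shown to differ between the lines. Of the 17, 12 rose and 4 fell in MDA-MB-231 alone and LSM2 fell in SKOV3 cells alone. SF3B3 (0.62, limma adjusted p = 0.113) and SNRPD1 (-0.60, adjusted p = 0.158) had among the larger differences that did not pass. Without both arrays numbered 1, the differences of SNRPN (-0.48, limma adjusted p = 0.0252) and PRPF4 (0.74, adjusted p = 0.022) were called as well. The plot of one line against the other shows the members along the diagonal.

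**Figure D4:**
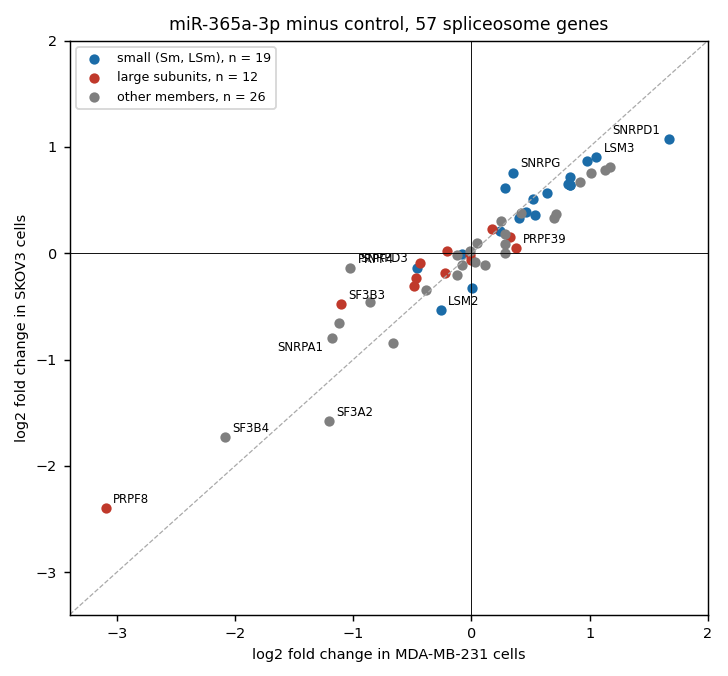
Log2 fold change (miR-365a-3p minus control) in MDA-MB-231 on the horizontal axis and SKOV3 cells on the vertical axis, a point per gene coloured by class, the dashed line marking equal change. Of the 57 symbols, 52 have the same sign in both lines, against 10528 of 12530 genes above the floor. PRPF8 lies at -3.09 and -2.40.

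The control groups were compared to see how the lines differed without miR-365a-3p. These control arrays also enter the responses above, so the values are given side by side only. In SKOV3 controls 5 members were higher and 8 lower than in MDA-MB-231 controls, 8.77% and 14.0% of the members against 8.34% and 7.76% of all genes and 17.8% and 17.8% of those above the floor. SNRPN, an imprinted relative of SNRPB known for its expression in brain, had the largest difference. It was at 7.49, 7.49 and 7.47 in MDA-MB-231 controls, close to the floor, and at 8.86 on both SKOV3 control arrays, a log2 difference of 1.38 (limma adjusted p = 0.000149). SNRPB went the other way, at 11.95 to 12.04 in MDA-MB-231 controls and 11.17 and 11.41 in SKOV3 controls (-0.70, limma adjusted p = 0.000333). Whether probes of these close relatives share signal was not tested.
LSM10 (1.09, limma adjusted p = 0.00862) and LSM1 (1.03, adjusted p = 0.0032) were higher in SKOV3 controls. PRPF8 was lower, at 10.31 and 10.04 against 11.09 to 11.29 (-1.01, limma adjusted p = 4.21e-05), and so was PRPF4 (-0.91, adjusted p = 0.0449). PRPF4 lost its call without any 1 of 8 arrays, and LSM10 without SKOV3 control replicate 2 (0.97, limma adjusted p = 0.088). The others lower in SKOV3 controls were PRPF3, PRPF38B, SF3B3, SNRNP200 and SNRNP70, and the others higher SNRNP27 and U2AF1L2. The call of SNRNP200 (-0.13, limma adjusted p = 0.0475) held with 2 of the 11 arrays left out singly, those of SF3B3 and SNRNP70 with 7 and 6, and none of the 3 was called on the deposited values. Those of PRPF3 and PRPF38B held with all 11. Of the small genes 3 were higher and 1 lower, and of the large subunits 0 were higher and 4 lower.

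**Figure D5:**
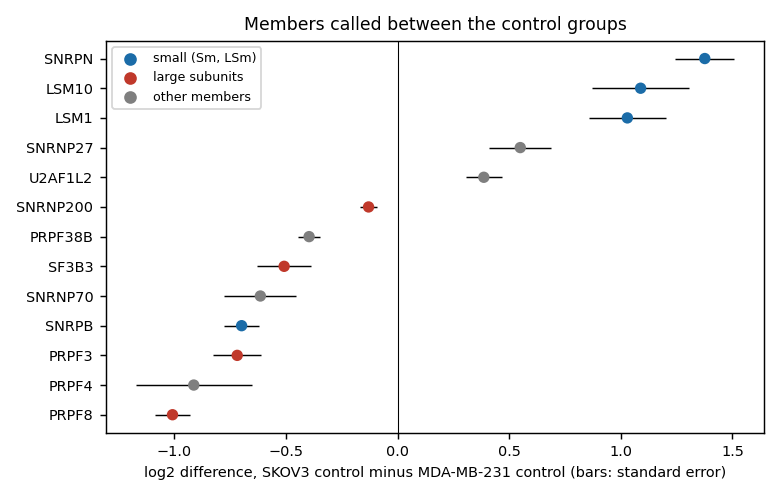
Log2 difference (SKOV3 control minus MDA-MB-231 control) of the 13 members called, with bars for the standard error from limma and colours for the class. SNRPN is highest at 1.38 and PRPF8 lowest at -1.01, and all 4 large subunits lie below 0.

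Promoter sequences are shown for 4 members to set genes that fell (PRPF8, SF3B4) beside genes that rose (SNRPB2, LSM3). They hold 250 bases before and 50 after the start of the gene in RefSeq (GRCh38.p14), 5′ to 3′ on the strand of the gene. PRPF8 lies at chr17:1684818-1685117 on the minus strand, SF3B4 at chr1:149927754-149928053 on the minus strand, SNRPB2 at chr20:16729776-16730075 on the plus strand and LSM3 at chr3:14178567-14178866 on the plus strand. The capitals mark matches, on either strand, to 3 motifs, an ETS motif (CCGGAAGT), the GC box (GGGCGG) and the CCAAT box (CCAAT).
PRPF8: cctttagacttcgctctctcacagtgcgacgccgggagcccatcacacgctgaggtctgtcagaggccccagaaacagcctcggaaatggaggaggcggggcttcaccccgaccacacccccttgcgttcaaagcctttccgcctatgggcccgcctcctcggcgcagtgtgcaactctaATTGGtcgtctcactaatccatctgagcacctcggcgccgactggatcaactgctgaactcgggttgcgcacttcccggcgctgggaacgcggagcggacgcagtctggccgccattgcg
SF3B4: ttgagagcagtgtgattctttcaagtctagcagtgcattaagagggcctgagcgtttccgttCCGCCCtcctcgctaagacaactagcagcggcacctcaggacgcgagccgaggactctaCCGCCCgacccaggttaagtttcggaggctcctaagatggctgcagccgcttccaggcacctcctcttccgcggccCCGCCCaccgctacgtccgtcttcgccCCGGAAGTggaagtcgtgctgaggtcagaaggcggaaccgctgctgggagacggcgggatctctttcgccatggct
SNRPB2: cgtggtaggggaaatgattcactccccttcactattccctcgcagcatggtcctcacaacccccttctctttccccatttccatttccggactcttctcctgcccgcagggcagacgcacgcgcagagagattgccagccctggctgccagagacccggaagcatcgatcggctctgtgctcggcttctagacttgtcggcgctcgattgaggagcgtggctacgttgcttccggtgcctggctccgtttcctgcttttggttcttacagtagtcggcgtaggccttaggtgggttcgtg
LSM3: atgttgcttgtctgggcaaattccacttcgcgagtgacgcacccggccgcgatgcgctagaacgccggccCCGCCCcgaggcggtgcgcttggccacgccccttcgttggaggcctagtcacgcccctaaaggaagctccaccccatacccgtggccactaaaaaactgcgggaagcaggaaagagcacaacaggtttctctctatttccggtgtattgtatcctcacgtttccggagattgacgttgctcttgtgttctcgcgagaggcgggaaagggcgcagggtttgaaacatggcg
PRPF8 holds 1 CCAAT box, SF3B4 1 ETS motif and 3 GC boxes, and LSM3 1 GC box, and none of the motifs is in the SNRPB2 window. Of the members, 48 genes matched a promoter, and LSM1, LSM6, PRPF3, PRPF39, SF3B3, SNRNP35 and SNRPD1 were among those that did not. The ETS motif was in 27.1% of the 48 and in 4.44% of all 27305 promoters of this length, and the GC box in 64.6% and 44.6%. The CCAAT box was in 41.7% and 35.7%. The 27305 promoters were not limited to genes above the floor, where most members lie. Whether the members differ from other genes above the floor in these motifs was not tested. Among the members that rose in both lines, 8 have a promoter here, of which 3 hold the ETS motif and 4 the GC box. Among those that fell in both, 7 have one, of which 3 hold the ETS motif and 6 the GC box. Their median GC content was 58.2% and 66.7%, against 58.3% over all promoters. These are matches of letters, and nothing was measured at the promoters.

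Further spliceosome genes came from lists made by function, with earlier results of these data known, and 98 of 99 genes were measured. Of these, 33 rose and 28 fell in MDA-MB-231 and 23 rose and 11 fell in SKOV3 cells, where 33.2% and 25.1% and then 17.4% and 15.4% of all genes above the floor rose and fell. The genes named here were chosen after their values were seen. Of 27 genes of the Prp19 complex and related factors, which join at activation, 15 rose and 4 fell in MDA-MB-231 and 9 rose and 1 fell in SKOV3 cells. CDC5L (0.79 and 0.63) and PLRG1 (0.74 and 0.70), core members of that complex, rose in both lines, and WBP11 fell in both (-0.98 and -0.56). Its namesake PRPF19, which belongs to the members, was called in neither line (-0.13 and -0.02), but was called as lower in MDA-MB-231 on the deposited values (-0.49, limma adjusted p = 0.0174) and with median centring (-0.45, adjusted p = 0.022).
Of 10 spliceosomal helicases, 0 rose and 5 fell in MDA-MB-231 and 0 rose and 4 fell in SKOV3 cells. The shares of all genes above the floor that rose and fell were 33.2% and 25.1%, then 17.4% and 15.4%. EIF4A3, which marks exon junctions, fell by 1.43 and 0.93 on the log2 scale, and DHX38, DHX16 and DDX42 fell in both lines too. Of 18 genes of the SMN complex and methylosome, which load the Sm ring onto RNA, 7 rose and 4 fell in MDA-MB-231 and 6 rose and 0 fell in SKOV3 cells. SIP1 (1.37 and 1.11), now named GEMIN2, GEMIN6 (0.93 and 0.82) and PRMT5 (0.53 and 0.52), which methylates Sm proteins, rose in both lines. GEMIN4 fell in MDA-MB-231 (-1.71).
Of 16 SR and SR-related genes, whose proteins guide splice site choice, 4 rose and 6 fell in MDA-MB-231 and 4 rose and 3 fell in SKOV3 cells. Again 33.2% and 25.1%, then 17.4% and 15.4%, of all genes above the floor rose and fell. SRRM1 (-1.83 and -2.29) and SRRM2 (-1.12 and -1.92), the large matrix proteins among them, fell in both lines, and SFRS3 (0.81 and 0.65), now named SRSF3, rose in both. Of 27 other snRNP proteins, 7 rose and 9 fell in MDA-MB-231 and 4 rose and 3 fell in SKOV3 cells. CD2BP2, a U5 protein, rose by 1.72 and 1.27 on the log2 scale, and SMNDC1 fell by 1.01 and 1.06.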

How the data were processed

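RNA was labelled with biotin and hybridized to Illumina BeadChips. Per the methods of the authors, lumi was used for quantile normalization, and 1 value on a log scale was deposited for each of 31325 gene symbols and array. The deposited values were read as log2, and the folds rest on that. Whether the transformation was log2 or variance stabilizing, how probes were combined and whether background was subtracted are not given in the sources used here. No detection values were used, so the number of arrays limits the precision.
The labels gave the cell line and treatment of all 11 arrays, and all were used. Because the deposited columns did not share a distribution, they were quantile normalized again with limma 3.58.1 in R 4.3.3. That step also removed a difference in the upper quartile of the arrays that went with treatment. A model with 4 group means was fitted to all genes (lmFit, eBayes), and a gene was called at a Benjamini-Hochberg adjusted p under 0.05, taken over the 31325 genes. Single values were tested by the exact permutation of treatment within cell lines over 200 arrangements, two-sided. The fit was tested on simulated data.
The members and lists were chosen with earlier results of these data known. Values are given by array or range for the 7 Sm ring genes, LSM1, LSM8, PRPF8, SNRNP200, SF3B1, SF3B2, SF3B3 and PRPF6, the 5 largest rises and 5 largest falls called in both lines, members called for the difference between lines, the 5 largest differences between controls, and small members that fell or large members that rose. Other members and the other spliceosome genes were named after their values were seen.
Alternatives were the deposited values, median centring, cyclic loess, a filter on dim genes, an intensity trend with robust hyperparameters, replicate blocks, an adjusted p under 0.01, each cell line alone and each array left out. Leaving out both miR-365a-3p arrays numbered 1 was added after the data were seen. RefSeq tables (GRCh38.p14) served for names, gene spans and sequences. One member enters the counts and medians but is not reported here by its own values. Protein lengths, transcripts and seed sites were not analysed here.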

Additional observations from a re-analysis of the deposited data

Results flagged for a closer look

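A difference of the response to miR-365a-3p between the cell lines was called for 2 members by the interaction in limma. Of the genes above the floor, 3.02% were called higher and 2.59% lower in SKOV3 cells. PRPF8 had a log2 fold change that was 0.70 higher in SKOV3 than in MDA-MB-231 cells (-2.40 against -3.09, adjusted p = 0.0106), with a fall on every miR-365a-3p array of both lines. PRPF39 had a log2 fold change that differed by -0.33 in SKOV3 cells (0.05 against 0.38, adjusted p = 0.0467). Its miR-365a-3p arrays were all above the controls in MDA-MB-231 cells and overlapped them in SKOV3 cells. The PRPF8 call held with 16 of 19 alternatives. That of PRPF39 held with 2 of 19, and with 1 of the 11 arrays left out singly.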

How the results depend on the processing

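With every alternative set out in the methods and with each array left out, SNRPB2 and SNRPD1 were called as rising and PRPF8, SF3B4, SF3A2, SNRNP200 and SF3A1 as falling in both lines, and no called value of a member named by rule changed sign. U2AF1L2, called in MDA-MB-231 cells, turned to -0.07 on deposited values and -0.04 with median centring. For the named members, 1989 values kept their direction and side of the threshold, 143 lost the call and 55 gained one.
The counts that follow are of members only, since the shares of all genes called under the same alternatives are not given here. Of the counts, the 23 members higher in MDA-MB-231 cells became 14 on deposited values and 13 at an adjusted p under 0.01. The 11 higher in SKOV3 cells became 7 with cyclic loess, 6 at an adjusted p under 0.01, and 3 to 16 with an array left out (6 without SKOV3 control replicate 1, 3 without replicate 2). The 9 lower there became 5 to 10, the lowest without SKOV3 control replicate 2. The members with a higher response in SKOV3 cells were 0 at an adjusted p under 0.01 and with an intensity trend and robust hyperparameters, 1 to 2 with an array left out (2 without SKOV3 miR-365a-3p replicate 1), and 2 without both arrays numbered 1, an alternative chosen after seeing the data. Those with a lower response were 0 on deposited values, with median centring, cyclic loess, intensity trend or an adjusted p under 0.01, and 0 to 1 with an array left out. Between controls, the 5 higher became 3 at an adjusted p under 0.01 and 2 to 7 with an array left out (3 without SKOV3 control replicate 1, 2 without replicate 2). The 8 lower became 4 on deposited values, with median centring and at an adjusted p under 0.01, and 4 to 8 with an array left out (5 without MDA-MB-231 miR-365a-3p replicate 2 or control replicate 3, 4 without SKOV3 control replicate 1 or 2). The median of the large subunits was -0.42 on deposited values and -0.39 with median centring in MDA-MB-231 cells, and for the SKOV3 response -0.29 and -0.25. With an array left out it was between -0.28 and -0.16 and between -0.14 and -0.029. On the deposited values the upper quartile of all genes was lower on every miR-365a-3p array than on every control array. It was between 7.56 and 7.80 with miR-365a-3p and between 7.86 and 8.04 with control miRNA. Quantile normalization set it to 7.80 on every array, which removed this difference between treatments. Whether the difference is technical, and what caused the shifts in counts and medians, was not tested.
Replicate numbers did not pair the arrays within a line, with correlations between -0.126 and 0.201 for the same numbers. With a replicate block within each cell line, 20 members rose in MDA-MB-231 cells and 7 in the SKOV3 line, and the difference between lines was called for 0 higher and 0 lower. Between the lines the same numbers gave 0.668, 0.296 and 0.338 for the miR-365a-3p arrays and 0.115 and -0.114 for the controls. Unlike numbers gave between -0.698 and 0.600 for the miR-365a-3p arrays, the highest for MDA-MB-231 replicate 3 with SKOV3 replicate 2. Deviations from a group mean sum to 0, so these correlations are not independent. With a block shared by the lines, 17 rose in SKOV3 cells, with LSM7, PRPF4B, SNRNP25, SNRPD2, SNRPE and SNRPG added, and 0 had a lower response. SF3B3 was then not called in SKOV3 cells (-0.50, adjusted p = 0.0522), nor SNRPC and SNRPF in MDA-MB-231 cells (adjusted p = 0.0501 and 0.0569), where LSM8 was called as higher and PRPF31 as lower (adjusted p = 0.0376 and 0.0491). The floor and the 2 SKOV3 control arrays limit what could be detected.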
